A study of Mus musculus with 5 samples.

Results

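The genes described here build and anchor the extracellular matrix of the tumour: collagens, other matrix proteins, the enzymes that cross-link and cut them, and markers of the fibroblasts and pericytes that make much of it. A fixed list of 42 genes was matched by gene symbol to the array's annotation, and 38 of them had a named probe, with 1 probe each, among 19505 named genes and 22203 probes in all. Pdgfra, Col12a1, Loxl2 and Fbn1 had none and were not analysed here. The rule goes by function and uses no measured value, but the list was drawn up with earlier results of these data known, so its counts below are descriptions and not a test of the list.

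Whole-tumour RNA from 5 subcutaneous B16.F10 melanomas was hybridised to Clariom S mouse arrays, 1 array per tumour. B16.F10 is an established mouse melanoma line, here carrying luciferase and green fluorescent protein, and the hosts were wildtype C57BL/6 mice aged 10 weeks. All the mice received anti-PD-1, an antibody against an inhibitory T cell receptor, into the peritoneum on days 1, 4 and 8, so no tumour without anti-PD-1 enters any comparison. By mouth, 2 mice received vehicle (corn oil with 5% DMSO; tumours numbered 3 and 4) and 3 received RG7112, a small molecule that keeps MDM2 from binding and degrading p53 (tumours numbered 1, 2 and 3), every second day for 6 days, and tumours were excised on day 13. The labels describe each sample as melanoma cells mixed with infiltrating immune cells and name no fibroblasts. Each array measured whole-tumour RNA, so changes in the number of stromal cells and in RNA per cell cannot be told apart.

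Fibrillar collagens are secreted as procollagen trimers, trimmed outside the cell and cross-linked by lysyl oxidases, while network collagens such as type IV form the basement membranes of vessels. Matricellular proteins such as periostin and the thrombospondins sit on this scaffold and tune how cells attach and signal, metalloproteinases cut it, and TIMP proteins hold the metalloproteinases back. In transplanted melanomas the matrix comes from host fibroblasts and pericytes, and in part from the tumour cells, endothelium and macrophages.

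The arrays had medians between 5.76 and 5.81 on the log2 scale, and RG7112 replicate 1 had the widest distribution (quartiles 4.02 and 7.85). The melanocyte lineage list, 12 pigment cell genes, had mean levels between 10.97 and 11.16 in all tumours, so pigment cell RNA was present in each. Of the measured fibroblast surface markers, the mean signal of Fap stood at the 26.1 percentile of all probes and that of Thy1 at the 62.7 percentile, and Dcn, a proteoglycan that fibroblasts make, stood at the 80.7 percentile. These place each probe on the array and do not order the genes by expression.

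No member gene passed the test between RG7112 and vehicle, but most were somewhat higher with RG7112. In limma, 0 of 38 members were called higher or lower at an adjusted p under 0.05 (smallest 0.162, for Thbs2), where 1.42% of all probes were called higher and 0.0315% lower. The difference was above 0 in 30 members (78.9%), against 44.8% of all probes, and in 25 to 31 of 38 when any 1 tumour was left out. The median member differed by 0.18 on the log2 scale and the median probe by -0.03. Without RG7112 replicate 2 the members' median was 0.31. Leaving out any of the 5 tumours left 0 members called.

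At an unadjusted p under 0.05, 8 members were higher (Col5a2, Col6a2, Postn, Thbs2, Bgn, Fap, Thy1 and Rgs5) and 0 were lower, or 21.1% of the members against 4.83% of all probes for higher values and 4.06% for lower ones (8.89% in either direction). Without vehicle replicate 3 that count, in either direction, was 3 (7.89% of members, against 5.87% of all probes), close to the background, and without vehicle replicate 4 it was 4 (10.5%, against 7.05%). Without RG7112 replicates 1, 2 and 3 it was 5, 9 and 6 (13.2%, 23.7% and 15.8%, against 7.55%, 9.44% and 10.9% of all probes). In 11 members every RG7112 tumour was above both vehicle tumours (28.9%, against 10.8% of all probes), and in 1 member, Timp2, every RG7112 tumour was below them (2.63%, against 14.0%). The 11 were these 8 and Col18a1, Col6a3 and Mmp14. With RG7112 replicate 2 left out, 18 of 38 members were separated in the higher direction, against 17.7% of all probes. Without vehicle replicate 3 they were 17 of 38 (against 20.8%) and without vehicle replicate 4 they were 14 (against 23.3%). Without RG7112 replicates 1 and 3 they were 13 (against 15.1%) and 12 (against 18.9%). In these settings 2 to 4 of 38 were separated the other way, against 20.7% to 28.2% of all probes.

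**Figure D1:**
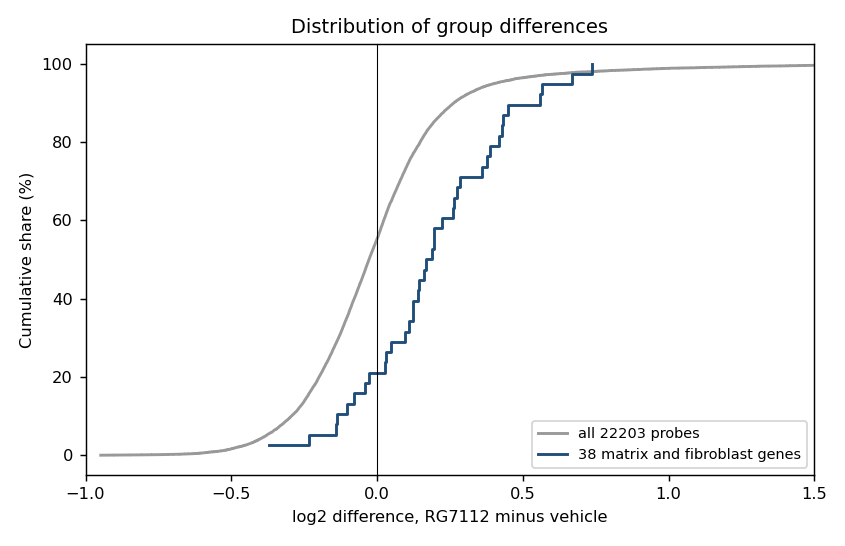
Cumulative share (y axis, %) of log2 differences, RG7112 minus vehicle (x axis), for 38 matrix and fibroblast genes and for all 22203 probes; the x axis ends at 1.5. The members' curve lies to the right of the curve of all probes around its centre, with a median of 0.18 against -0.03, and no member lies above 0.74.

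The precision of these differences can be read from their 95% intervals, which come from the limma fit and are not adjusted for the number of genes. In 33 of 38 members the interval lay within 1 log2 unit of 0 on either side. In the other 5, Postn, Thbs2, Lox, Mmp3 and Rgs5, it reached above 1, and in 0 members did it reach below -1. These intervals rest on the spread between 2 vehicle and 3 RG7112 tumours.

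**Figure D2:**
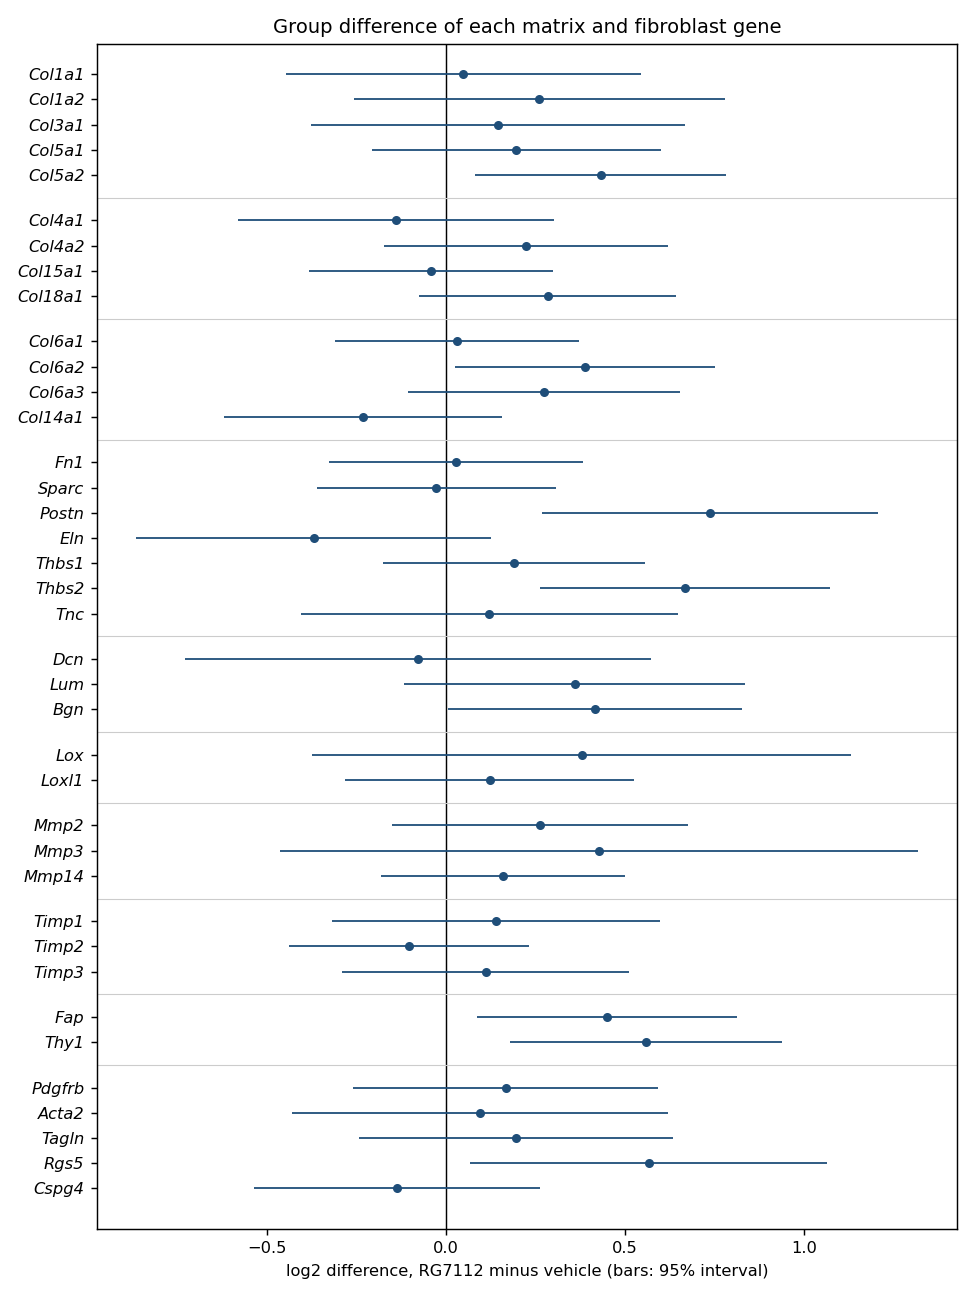
Log2 difference, RG7112 minus vehicle (x axis), for each of 38 genes grouped by role (y axis; lines separate the groups); points are estimates and bars are unadjusted 95% intervals from limma. Estimates run from -0.37 (Eln) to 0.74 (Postn), and 30 of the points lie to the right of 0.

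The fibrillar collagens, the load-bearing fibres of connective tissue, were highest in RG7112 replicate 3. Col1a1, the major chain of type I collagen, measured 8.35 and 8.23 in the vehicle tumours and 8.27, 7.95 and 8.79 in RG7112 replicates 1, 2 and 3. Its group difference was 0.05 ± 0.22 (SE; limma adjusted p = 0.981), and the RG7112 tumours lay on both sides of the vehicle tumours. Col1a2, the partner chain, measured 8.17 and 8.35 with vehicle and 8.29, 8.22 and 9.04 with RG7112. Col3a1, which forms type III collagen of soft tissue and vessel walls, measured 9.05 and 8.74 with vehicle and 9.00, 8.62 and 9.50 with RG7112. In these 3 genes RG7112 replicate 3 stood above all other tumours, and replicates 1 and 2 overlapped with or fell below the vehicle tumours. Without RG7112 replicate 3 their differences were -0.18, -0.0014 and -0.09 in place of 0.05, 0.26 and 0.14.

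The type V chains, minor components that help set fibril diameter, were also highest in RG7112 replicate 3. Col5a2 measured 5.30 and 5.14 with vehicle and 5.63, 5.55 and 5.76 with RG7112, a difference of 0.43 ± 0.16 (SE; adjusted p = 0.393). Its groups did not overlap, while those of Col5a1 did (difference 0.20 ± 0.18). Over the 5 fibrillar chains, the median deviation from the vehicle mean was 0.55 in RG7112 replicate 3, 0.04 in replicate 1 and -0.04 in replicate 2. No member of this group passed the test.

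RG7112 replicate 3 also stood apart in adipocyte genes. The median deviation of 8 adipocyte markers was 0.99 in that tumour and between -0.12 and 0.04 in the others, with mean levels of 6.40 against 5.43 to 5.72. Adipoq, the fat cell hormone adiponectin, measured 3.89 and 3.62 with vehicle and 3.57, 5.03 and 5.95 with RG7112. Of the 8 markers 1 was called higher with RG7112 in limma (12.5%, against 1.42% of all probes). It was Fabp4 (1.18 ± 0.19, adjusted p = 0.0099), a fatty acid carrier that endothelium and macrophages also make. In 12 skeletal muscle genes the same tumour had the lowest mean level, 4.98 against 5.57 to 6.27. Skin keratinocyte markers had a median difference of -0.19 over 11 genes and Schwann cell markers of -0.02 over 4, with 0 called in limma in either list. At an unadjusted p under 0.05, 2 of the 11 keratinocyte genes were lower, against 4.06% of all probes. The part of attached host tissue in the collagen values was not tested.

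**Figure D3:**
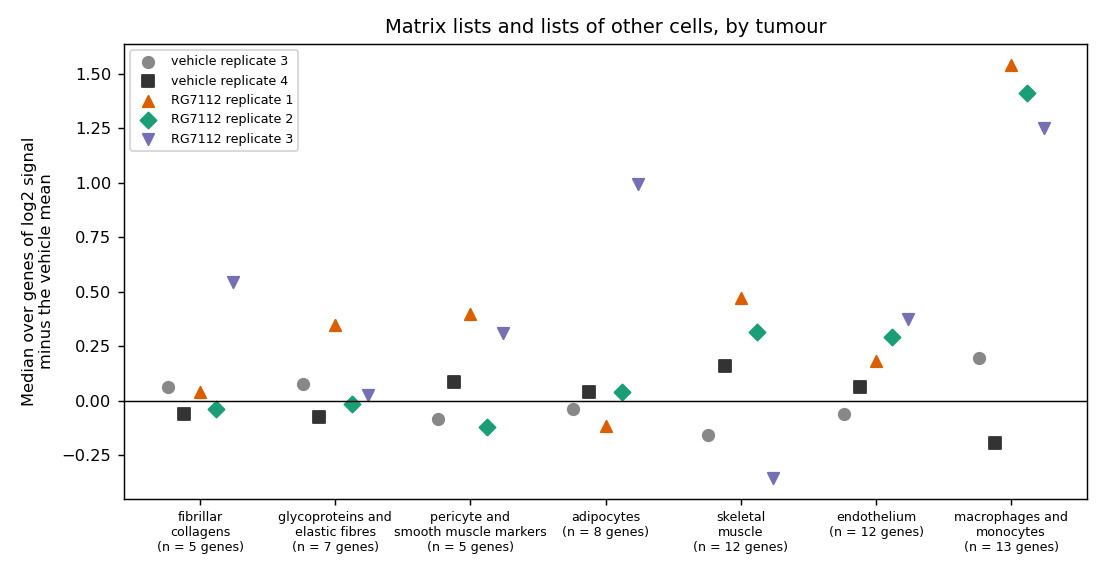
Median over the genes of a list of the log2 signal minus the vehicle mean (y axis) for 3 groups of matrix genes and 4 lists of other cells (x axis, number of genes in brackets), with 1 point per tumour. RG7112 replicate 3 is high for fibrillar collagens (0.55) and adipocytes (0.99) and low for skeletal muscle (-0.36), while all 3 RG7112 tumours are above the vehicle tumours for macrophages and monocytes.

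The basement membrane and vessel-wall collagens showed no common direction. Col4a1 and Col4a2 encode the chains of the main type IV collagen, and in the RefSeq promoter table for GRCm38.p6 their starts lie 21 bases apart on opposite strands of chromosome 8. Col4a1 measured 7.69 and 7.51 with vehicle and 7.10, 7.53 and 7.75 with RG7112, and Col4a2 measured 7.32 and 7.32 with vehicle and 7.25, 7.74 and 7.64 with RG7112. RG7112 replicate 1 was the lowest tumour for both. The group difference was -0.14 ± 0.20 for Col4a1 and 0.22 ± 0.18 for Col4a2. Col15a1 and Col18a1, collagens of the outer basement membrane whose ends can be released as fragments such as endostatin, differed by -0.04 ± 0.15 and 0.28 ± 0.16. For Col18a1 the RG7112 tumours, at 6.14, 5.86 and 5.98, were all above the vehicle tumours at 5.79 and 5.62 (adjusted p = 0.692). Endothelial markers, whose cells make these collagens, had a median difference of 0.30 over 12 genes. Of these 1 was called higher, the VEGF receptor Kdr (1.01 ± 0.19), or 8.33% against 1.42% of all probes. In 8 of the 12 every RG7112 tumour was above both vehicle tumours (66.7%, against 10.8%), and in 0 below both (against 14.0%). The part of endothelium in these values was not tested.

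Collagen VI, a beaded filament that links cells to the fibrillar matrix, is built from 3 chains. Col6a2 measured 5.93 and 5.99 with vehicle and 6.42, 6.47 and 6.15 with RG7112, a difference of 0.39 ± 0.16 (SE; adjusted p = 0.508), with groups that did not overlap. Col6a3 differed by 0.27 ± 0.17, also without overlap, and Col6a1 by 0.03 ± 0.15, with overlap. Col14a1, a collagen on the surface of fibrils, measured 5.14 and 5.06 with vehicle and 4.92, 5.07 and 4.61 with RG7112 (-0.23 ± 0.18). Unlike the fibrillar chains, it was lowest in RG7112 replicate 3.

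Chains that assemble into the same trimer had unequal differences, and this inequality was not tested. Over 6 pairs of partner chains, the change of the first chain minus that of the second ran from -0.36 (Col4a1 against Col4a2, and Col6a1 against Col6a2) to 0.11 (Col6a2 against Col6a3). Between Col4a1 and Col4a2, the log2 ratio lay below the vehicle mean by 0.43, 0.48 and 0.18 in the RG7112 tumours, and the vehicle tumours lay 0.09 on either side of it. The pairs were chosen after the values were seen.

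The largest differences among the members were those of periostin and thrombospondin 2. Postn encodes periostin, a matricellular protein that fibroblasts lay down beside collagen. It measured 7.38 and 7.74 with vehicle and 8.43, 7.90 and 8.55 with RG7112, means of 7.56 ± 0.25 (SD, n = 2) and 8.30 ± 0.34 (SD, n = 3). All RG7112 tumours were above both vehicle tumours, with replicate 2 closest to them. The difference was 0.74 ± 0.21 (SE), or 1.67-fold, and did not pass (limma adjusted p = 0.193). Thbs2, thrombospondin 2, a matricellular protein that restrains vessel growth, measured 6.14 and 5.99 with vehicle and 6.91, 6.43 and 6.85 with RG7112. It had the same order of tumours by group, with replicate 2 again the lowest of the RG7112 tumours, and a difference of 0.67 ± 0.18 (1.59-fold, adjusted p = 0.162). Without RG7112 replicate 2, the differences were 0.93 (adjusted p = 0.0584) for Postn and 0.82 (adjusted p = 0.0714) for Thbs2. Without vehicle replicate 3 they were 0.56 (adjusted p = 0.939) and 0.74 (adjusted p = 0.566).

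The promoter windows of Postn and Thbs2 are shown beside those of Col3a1 and Col1a2, because the first pair had the largest differences and the second pair was high in RG7112 replicate 3 alone. Each line gives the 150 bases before a RefSeq start on GRCm38.p6, 5′ to 3′ on the strand of the gene, and capitals mark matches to the motifs named after them. They lie at chr3:54360957-54361106, plus strand, for Postn (the second of its 2 listed starts), chr17:14694263-14694412, minus strand, for Thbs2, chr1:45311388-45311537, plus strand, for Col3a1 and chr6:4505468-4505617, plus strand, for Col1a2.
Postn: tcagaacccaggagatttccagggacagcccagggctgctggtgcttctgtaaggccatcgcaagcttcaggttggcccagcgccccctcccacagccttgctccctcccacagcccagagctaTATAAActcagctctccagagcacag
Thbs2: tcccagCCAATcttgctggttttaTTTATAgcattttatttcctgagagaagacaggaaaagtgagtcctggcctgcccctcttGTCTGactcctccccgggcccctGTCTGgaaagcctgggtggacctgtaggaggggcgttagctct
Col3a1: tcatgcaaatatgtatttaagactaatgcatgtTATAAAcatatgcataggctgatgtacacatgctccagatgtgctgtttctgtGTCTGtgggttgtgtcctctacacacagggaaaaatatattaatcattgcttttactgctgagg
Col1a2: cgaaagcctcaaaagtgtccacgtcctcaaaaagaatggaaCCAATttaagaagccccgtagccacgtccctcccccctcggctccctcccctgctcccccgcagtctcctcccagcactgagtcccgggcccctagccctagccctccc
The motifs searched on both strands were the TATA sequence TATAAA, the box CCAAT, the AP-1 site TGANTCA, the SMAD box CAGAC and the CArG box of serum response factor, and no match overlapped another in the 4 windows. TATAAA was found in Postn, 26 to 21 bases before the start, in Col3a1, 117 to 112 bases before it, and, on the opposite strand, in Thbs2. CAGAC was found on the opposite strand in Thbs2, at 2 places, and in Col3a1, and CCAAT in Thbs2 and Col1a2. Windows were listed for 23 of the 38 members, 27 windows in all. TATAAA was found in 5 of these 27 windows (against 7.57% of all 32851 windows) and the box CCAAT in 6 (against 24.5%). The AP-1 site was found in 2 (against 4.24%), the SMAD box in 8 (against 27.7%) and the CArG box in 0 (against 0.916%). A match describes the letters of a window and not a site in use.

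Other glycoproteins differed little between groups. Fn1, fibronectin, which links integrins to collagen, measured 9.63 and 9.39 with vehicle and 9.64, 9.46 and 9.51 with RG7112. Sparc, a collagen-binding protein that B16 cells and stroma both can make, measured 12.01 and 11.99 with vehicle and 11.99, 11.91 and 12.02 with RG7112. Their intervals, from -0.33 to 0.38 and from -0.36 to 0.31, were narrow against those of most members. Thbs1, thrombospondin 1, differed by 0.19 ± 0.17 with overlapping groups.

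Tenascin C and elastin departed in RG7112 replicate 1, in opposite directions. Tnc, a glycoprotein of remodelled matrix, measured 8.15 and 8.15 with vehicle and 8.81, 8.14 and 7.88 with RG7112, so that replicate 1 was the highest tumour and replicate 3 the lowest. Eln, the core of elastic fibres, measured 7.54 and 7.16 with vehicle and 6.54, 7.13 and 7.26 with RG7112, and replicate 1 was the lowest tumour. The group differences were 0.12 ± 0.24 and -0.37 ± 0.22 (adjusted p = 0.943 and 0.717). That of Eln was -0.15 without RG7112 replicate 1 and -0.18 without vehicle replicate 3.

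The small leucine-rich proteoglycans bind collagen fibrils and control their spacing. Bgn, biglycan, measured 8.01 and 7.93 with vehicle and 8.52, 8.06 and 8.58 with RG7112, a difference of 0.42 ± 0.19 (adjusted p = 0.551) without overlap. Dcn, decorin, measured 8.49 and 7.96 with vehicle and 8.80, 7.63 and 8.01 with RG7112, a range of 1.16 within the RG7112 group. Lum, lumican, measured 4.87 and 4.67 with vehicle and 5.49, 4.72 and 5.18 with RG7112. For Dcn and Lum the groups overlapped, and RG7112 replicate 1 was the highest tumour in both.

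Of the lysyl oxidases, which cross-link collagen and elastin, Lox varied most. It measured 6.78 and 6.55 with vehicle and 7.23, 6.19 and 7.71 with RG7112. The lowest and the highest tumours for Lox were both RG7112 tumours, 1.52 apart, and its difference of 0.38 had an SE of 0.34. The difference was 0.80 without RG7112 replicate 2 and 0.04 without RG7112 replicate 3. Loxl1, needed for elastic fibres, differed by 0.12 ± 0.18 and was highest in RG7112 replicate 3.

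Among the matrix metalloproteinases, Mmp14, a membrane-bound collagenase that also activates the product of Mmp2, measured 9.20 and 9.34 with vehicle and 9.51, 9.37 and 9.41 with RG7112. The groups did not overlap, but the difference was small (0.16 ± 0.15). Mmp2, a gelatinase of fibroblasts, differed by 0.26 ± 0.19 and was highest in RG7112 replicate 3, at 7.22 against 6.54 to 6.88. Mmp3, stromelysin, differed most between the vehicle tumours, at 7.12 and 5.59, and measured 7.27, 6.95 and 6.13 with RG7112. Its difference was 0.43 ± 0.40, and it was 1.19 without vehicle replicate 3 and -0.34 without vehicle replicate 4.

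The inhibitors of metalloproteinases had differences of 0.14 ± 0.21 (Timp1), -0.10 ± 0.15 (Timp2) and 0.11 ± 0.18 (Timp3). Timp2, which also takes part in the activation of Mmp2, measured 9.45 and 9.54 with vehicle and 9.42, 9.41 and 9.34 with RG7112, so that every RG7112 tumour was below both vehicle tumours, the nearest of them only slightly. Timp1, an inhibitor induced in inflammation, was lowest in RG7112 replicate 2, at 7.91 against 8.05 to 8.55 in the others.

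Both measured surface markers of fibroblasts, Fap and Thy1, were higher in every RG7112 tumour, without passing the test. The other measured fibroblast markers, Dcn (-0.08 ± 0.30) and Lum (0.36 ± 0.22), overlapped between groups. Over 28 further fibroblast genes the median difference was 0.05. At an unadjusted p under 0.05 in limma, 5 of the 28 were higher (17.9%, against 4.83% of all probes) and 0 lower. Every RG7112 tumour was above both vehicle tumours in 7 of them (25%, against 10.8%) and below both in 3 (10.7%, against 14.0%). Fap, a surface protease of activated fibroblasts, measured 3.81 and 3.95 with vehicle and 4.46, 4.15 and 4.36 with RG7112, a difference of 0.45 ± 0.16 (adjusted p = 0.392) on a dim probe. Thy1, a surface glycoprotein of fibroblasts and of mouse T cells, measured 6.36 and 6.64 with vehicle and 7.20, 6.87 and 7.10 with RG7112, a difference of 0.56 ± 0.17 (adjusted p = 0.241). T cell markers had a median difference of 0.39 over 9 genes. Their mean levels were 4.77 to 4.84 with vehicle and 5.25 to 5.36 with RG7112. Of the 9 genes 1, Cd8b1, was called higher (11.1%, against 1.42% of all probes). In 6 of the 9 every RG7112 tumour was above both vehicle tumours (66.7%, against 10.8%), and in 0 below both (against 14.0%). The part of T cells in the value of Thy1 was not tested.

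Pericyte and smooth muscle markers overlapped between groups except for Rgs5. Rgs5, a regulator of G protein signalling found in pericytes, measured 6.06 and 5.94 with vehicle and 6.97, 6.12 and 6.60 with RG7112, a difference of 0.57 ± 0.23 (adjusted p = 0.463). Pdgfrb, the PDGF receptor that recruits pericytes, differed by 0.17 ± 0.19. The contractile genes Acta2, smooth muscle actin, and Tagln, transgelin, differed by 0.10 ± 0.24 and 0.19 ± 0.20. The Tagln difference was 0.38 without vehicle replicate 3 and 0.0082 without vehicle replicate 4. Acta2 was highest in RG7112 replicate 3 (7.73) and lowest in replicate 2 (6.87), with vehicle tumours at 6.99 and 7.39 between them. Cspg4, the NG2 proteoglycan of pericytes and of melanoma cells, measured 5.30 and 5.48 with vehicle and 4.98, 5.43 and 5.35 with RG7112 (-0.14 ± 0.18).

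**Figure D4:**
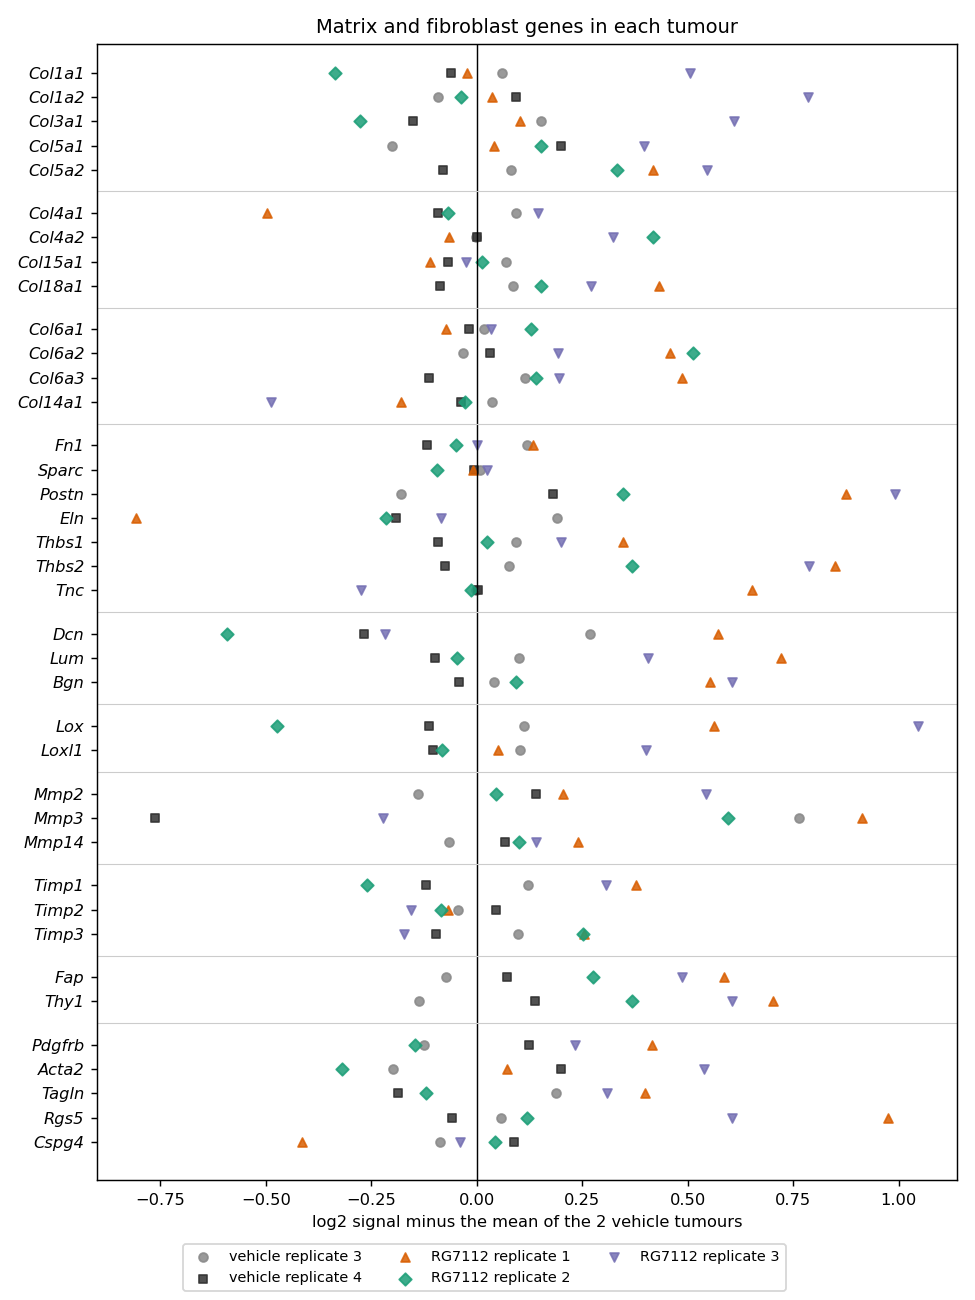
Log2 signal of each tumour minus the mean of the 2 vehicle tumours (x axis) for each of 38 genes grouped by role (y axis; lines separate the groups), with 1 symbol per tumour. The points furthest to the right are those of Lox (1.05) and Postn (0.99) in RG7112 replicate 3 and of Rgs5 (0.97) in replicate 1, while replicate 2 lies near or below 0 for many genes; the 5 fibrillar chains at the top are highest in replicate 3.

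The RG7112 tumours differed among themselves in these genes. The median member lay above the vehicle mean by 0.30 in RG7112 replicate 1, 0.02 in replicate 2 and 0.29 in replicate 3, while the median over all probes lay between -0.04 and -0.02 in the 3 tumours. Above both vehicle tumours were 23 members in replicate 1 (60.5%, against 36.1% of all probes), 14 in replicate 2 (36.8%, against 29.9%) and 28 in replicate 3 (73.7%, against 33.1%), so that replicate 2 was near the background. RG7112 replicate 1 was the highest of the 5 tumours in 17 members (44.7%, against 24.4% of all probes) and replicate 3 in 13 (34.2%, against 20.1%). Replicate 2 was the highest in 3 members (7.89%, against 13.9%). The median SD within the RG7112 group was 0.26 over the members and 0.18 over all probes, and in 17 members the RG7112 tumours spanned over 0.5.

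The 2 RG7112 tumours with high members differed in which genes were high. Replicate 3 was the highest tumour, among others, for all 5 fibrillar chains, Postn, Bgn, both lysyl oxidases, Mmp2 and Acta2. Replicate 1 was the highest, among others, for Tnc, Thbs1, Thbs2, Dcn, Lum, Fap, Thy1, Pdgfrb, Rgs5 and Tagln. This division was seen in the values and was not tested. Macrophage and monocyte markers, in contrast, deviated from the vehicle mean by a median of 1.54, 1.41 and 1.25 in RG7112 replicates 1, 2 and 3, so that replicate 2 was not set apart.

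**Figure D5:**
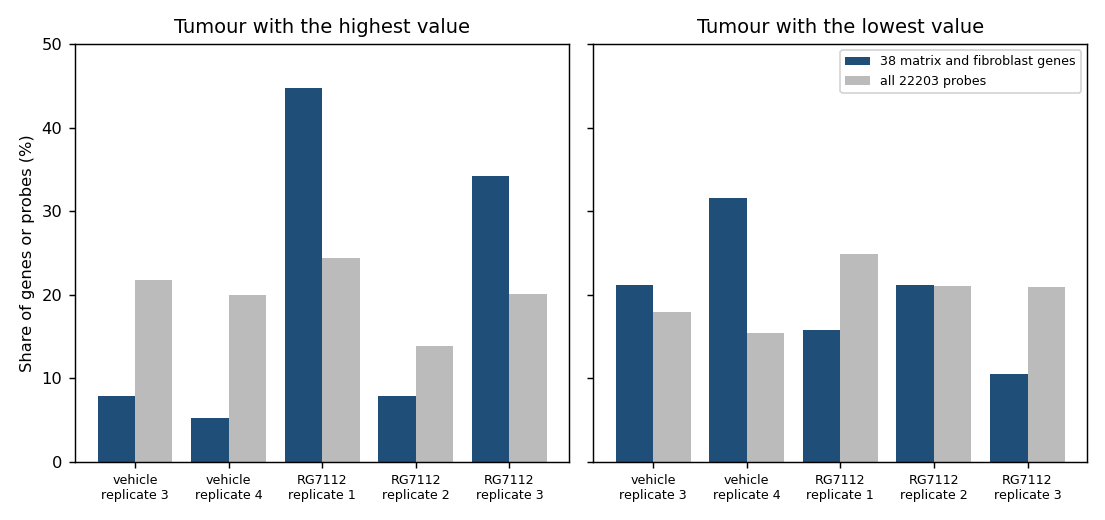
Share (y axis, %) of 38 matrix and fibroblast genes and of all 22203 probes for which each tumour (x axis) had the highest value (left) or the lowest value (right) of the 5. RG7112 replicates 1 and 3 hold the highest value in 44.7% and 34.2% of the members, and vehicle replicate 4 the lowest in 31.6%, against 15.4% of all probes.

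The rest of the matrix pathway was read from 8 further lists with 229 genes, 215 of them with a named probe. Of these 4 rose, 0 fell and 211 did not pass, and the median difference was -0.02. The called share was 1.86%, against 1.45% of all probes in either direction. Tgfbi, a secreted collagen-binding protein induced by TGF-beta, measured 7.61 and 7.14 with vehicle and 8.74, 9.13 and 8.63 with RG7112, a rise of 1.46 ± 0.20 (SE; adjusted p = 0.0037). Anpep, an aminopeptidase of pericytes that myeloid cells also carry, rose by 1.21 ± 0.19 (adjusted p = 0.0075). Lair1, an inhibitory collagen receptor of leukocytes, rose by 1.42 ± 0.29 (adjusted p = 0.0393). Ly6c1 rose by 1.65 ± 0.26 (adjusted p = 0.0085), but its sequence is close to that of the monocyte gene Ly6c2 (2.03 ± 0.26), and the probes may not separate them. Each was the sole call in its list: 49 further matrix glycoproteins and proteoglycans (median difference 0.07), 22 pericyte and smooth muscle genes (-0.04), 17 PDGF ligands and matrix receptors (0.05) and 28 fibroblast genes (0.05), in that order. All of these calls were lost without vehicle replicate 4 (adjusted p from 0.121 to 0.431). Those of Anpep (adjusted p = 0.0806) and Lair1 (adjusted p = 0.266) were also lost without vehicle replicate 3, and that of Lair1 without RG7112 replicate 3 (adjusted p = 0.105) and with cyclic loess normalization (adjusted p = 0.0551).

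Beside these 4 genes, markers of macrophages and monocytes differed by a median of 1.45 over 13 genes. Of the 13, 10 rose (76.9%, against 1.42% of all probes) and 3 did not pass. Mean levels of these markers were 6.42 to 6.85 with vehicle and 7.86 to 8.19 with RG7112. The part of these cells in the 4 calls was not tested.

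Enzymes that modify and process collagen, 23 genes, had 0 calls in limma and a median difference of 0.0024. At an unadjusted p under 0.05, 1 gene was higher (4.35%, against 4.83% of all probes) and 1 lower (against 4.06%). The smallest p-values were those of Pcolce2, an enhancer of procollagen trimming (0.41 ± 0.17), the hydroxylase family member P3h3 (-0.37 ± 0.16) and Mia3, which helps load procollagen into transport carriers (-0.32 ± 0.16). In the TGF-beta axis, the main fibrogenic pathway, 0 of 21 genes were called. At that unadjusted level 2 were higher (9.52%, against 4.83% of all probes) and 0 lower. Tgfb1, the ligand, measured 8.54 and 8.30 with vehicle and 9.02, 8.77 and 8.80 with RG7112 (0.44 ± 0.16, adjusted p = 0.407), and Smad7, a feedback inhibitor, differed by 0.45 ± 0.16. Skil, a corepressor of the pathway, differed by 0.24 ± 0.18. Of 28 further proteases and inhibitors 0 were called. At the unadjusted level 5 were higher (17.9%, against 4.83% of all probes) and 1 lower. The smallest p-values were those of Mmp19 (0.55 ± 0.19), the collagen-degrading cathepsin Ctsk (0.57 ± 0.21) and the urokinase receptor Plaur (0.56 ± 0.22). Every RG7112 tumour was above both vehicle tumours in 5 of the 28 (17.9%, against 10.8% of all probes). Every one was below them in 7 (25%, against 14.0%).

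Collagen chains outside the 42 genes went the other way. Of 29 such chains with a probe, many of them typical of cartilage, skin or nerve, 26 had a difference below 0. In 3 it was above 0 (10.3%, against 44.8% of all probes), and the median was -0.23. In limma 0 were called. At an unadjusted p under 0.05, 0 were higher and 3 of 29 lower, against 4.83% and 4.06% of all probes. The 3 were Col28a1 (-0.54 ± 0.17), Col11a1 (-0.48 ± 0.18) and Col8a1 (-0.48 ± 0.21). In 8 of the 29 every RG7112 tumour was below both vehicle tumours (27.6%, against 14.0% of all probes). Their median deviation from the vehicle mean was -0.58 in RG7112 replicate 1, -0.05 in replicate 2 and -0.07 in replicate 3. The median mean signal of these chains stood at the 45.8 percentile of all probes and that of the 38 members at the 65.6 percentile, and RG7112 replicate 1 had the widest distribution of values; the part of signal level in these differences was not tested.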

How the data were processed

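RNA of 5 tumours was measured on Clariom S arrays, 1 per mouse. What the authors deposited is a log2 signal per probe set. Per the submitters' processing notes it was made with oligo and RMA, which corrects background, quantile-normalizes and summarises probes, with versions not given in the sources used here. They name no genome build and carry no detection calls or scan dates, so batches and background were not examined. Of 22203 probes, 19572 had 1 gene symbol, 0 several and 2631 none, and 0 columns of values were left unused. The highest-mean probe stood for a gene.

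RG7112 minus vehicle was estimated with limma 3.58.1 under R 4.3.3 (lmFit and eBayes, 3 residual and 7.92 prior degrees of freedom) on all probes and checked on simulated data. Calls needed an adjusted p under 0.05 (Benjamini-Hochberg over all probes), and ± SE values are from this fit. The number of arrays limits the precision. The members and lists were chosen with earlier results of these data known, so no list was tested. All members are named, and of each further list the called genes or otherwise up to 3 with the smallest p; of marker lists, at most the 2 largest differences. Alternatives were an intensity trend or a robust prior in eBayes, weights per array, normalizing again by quantiles or by cyclic loess, leaving out probes under the 40th percentile, all probes of a gene averaged, adjusted p under 0.10, and leaving out each tumour.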

Additional observations from a re-analysis of the deposited data

How the results depend on the processing

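Under all alternatives, 0 members were called, and the members' median difference lay between 0.129 and 0.314. Of 38 members, 23 kept the sign of their difference throughout and 15 did not, 3 of them beyond leaving out a tumour: Col1a1 (-0.0176 with array weights, -0.0052 with quantile normalization), Col6a1 (-0.0231 with quantile normalization) and Fn1 (-0.0252 with quantile normalization). When each tumour was left out in turn, the differences ran from -0.18 to 0.241 for Col1a1, -0.00143 to 0.411 for Col1a2, -0.0877 to 0.355 for Col3a1, -0.00325 to 0.397 for Col5a1, -0.283 to 0.0384 for Col4a1, -0.11 to 0.027 for Col15a1, -0.0189 to 0.0815 for Col6a1, -0.0902 to 0.146 for Fn1, -0.0519 to 0.00756 for Sparc, -0.144 to 0.319 for Tnc, -0.404 to 0.189 for Dcn, -0.0159 to 0.226 for Loxl1, -0.335 to 1.19 for Mmp3, -0.125 to 0.304 for Acta2 and -0.227 to 0.00235 for Cspg4. Of the 23 members that kept their sign, 8 (Col5a2, Col18a1, Col6a2, Postn, Thbs2, Bgn, Fap and Thy1) stayed within 1.5 times their difference when any tumour was left out and 15 did not. The 15 ran from 0.128 to 0.37 for Col4a2, 0.161 to 0.387 for Col6a3, -0.333 to -0.104 for Col14a1, -0.56 to -0.15 for Eln, 0.0975 to 0.282 for Thbs1, 0.179 to 0.563 for Lum, 0.0448 to 0.804 for Lox, 0.124 to 0.403 for Mmp2, 0.093 to 0.226 for Mmp14, 0.0199 to 0.341 for Timp1, -0.147 to -0.0577 for Timp2, 0.0146 to 0.253 for Timp3, 0.0419 to 0.324 for Pdgfrb, 0.0082 to 0.382 for Tagln and 0.362 to 0.789 for Rgs5. The change of Col5a1 minus that of Col5a2 ran from -0.515 to 0.0452, and that of Col6a2 minus Col6a3 from -0.0314 to 0.259. Members higher in every RG7112 tumour numbered 12 to 18 of 38 without a tumour, against 15.1% to 23.3% of all probes. Fewer tumours make separation easier. Of all probes, 315 were called higher (65 to 268 without a tumour) and 7 lower. The lower calls numbered 16 with array weights, 4 with cyclic loess normalization, 2 without dim probes (fewer were tested), 29 at adjusted p under 0.10 and 0 to 5 without a tumour. The lowest counts were those without vehicle replicate 4. Without either vehicle replicate, the lone vehicle tumour is assumed to vary like the RG7112 tumours. The cause of the low counts was not tested. No paired analysis was possible because the groups share 1 replicate number. Dim probes such as that of Fap have no detection call here.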
